A study of Mus musculus with 8 samples.

Results

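The nuclear receptor superfamily was examined in mouse ventricle with and without cardiac Med1. The 31 receptor genes were taken from a fixed list of symbols looked up in the deposited expression table, in which each had 1 entry, and they stand among 23205 gene symbols in that table. RNA-seq with poly(A) selection was run on ventricles of C57BL/6 mice at postnatal day 21. There were 4 libraries from mice with a cardiac Med1 deletion (called knockout here) and 4 from mice with a floxed Med1 gene (Med1fl/fl in the study's design text, titled WT). The promoter that drove the deletion, whether WT mice carried Cre, and whether each library came from 1 animal are unstated in the labels. The p-values therefore measure only the spread between these libraries. The comparison asks how the receptor genes differed in ventricle with a deletion of Med1, a coactivator that many of these receptors use.

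Nuclear receptors are transcription factors that bind DNA through zinc fingers, and most of them carry a pocket for a lipid or hormone ligand. Several classes, among them the peroxisome proliferator-activated receptors (PPAR), the liver X receptors (LXR) and the retinoic acid receptors (RAR), bind DNA as partners of a retinoid X receptor (RXR). Med1 is the subunit through which the Mediator complex contacts ligand-bound receptors. In the heart the PPARs and the oestrogen-related receptors (ERR) are known as activators of fatty acid oxidation and of mitochondrial genes.

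Levels are given in FPKM, fragment counts scaled to the length of the transcript and to the mapped fragments of the library, which allow levels of different genes to be compared. Values for a gene are listed in the order of libraries 1 to 4 of each group. Changes are log2 differences of FPKM + 1, knockout minus WT, which understate the change of low genes. They were tested with limma, two-sided, over the 11974 genes whose mean over all 8 libraries was 1 FPKM or more, and a gene was called at a Benjamini-Hochberg adjusted p under 0.05. The number of fragments behind each library is unknown. A library had 11525 to 12272 genes at 1 FPKM or more. The median log2 change of all tested genes was 0.25 as deposited and 0.01 after the libraries were rescaled to a common median of ratios, so each change is best read against that shift, and each tested receptor's change is given on both scales. Med1 was 7.80, 8.37, 7.89 and 9.15 FPKM in the knockout and 15.5, 16.1, 10.6 and 16.8 FPKM in the WT libraries. It fell by 0.74 on the log2 scale (SE 0.135, limma adjusted p = 0.0011), and the groups did not overlap. Med1 transcript remained in ventricles of the knockout group, and RNA from other cells of the tissue and from the undeleted part of the gene cannot be told apart.

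Of the 31 receptor genes, 27 were past the minimum level, and among these 8 fell and 5 rose. The 8 that fell were Rxrg, Ppara, Nr3c2, Esrra, Rxra, Nr1d2, Rarb and Esrrg. The 5 that rose were Nr1h3, Rara, Nr4a2, Nr4a3 and Nr1h2. Calls thus covered 48.1% of tested receptors against 61.3% of all tested genes. Receptors called lower made up 29.6% against a background of 16.4%, and receptors called higher 18.5% against 44.9%. After rescaling, 12 receptors were lower (44.4%, against 26.9% of all genes) and 3 were higher (11.1%, against 27%), with 53.9% of all genes called in either direction. All 8 lower calls and 3 of the higher calls (Nr1h3, Rara and Nr4a2) were made on both scales. Nr4a2, with a mean of 1.01 FPKM, passed the minimum through the knockout group alone (0.456 FPKM in WT), so its call is no support for the count. The median log2 change of the 27 receptors was 0.00 as deposited and -0.23 after rescaling. Libraries of the groups did not overlap for 11 receptors (40.7%, against 57% of all genes), of which 7 were lower (background 15.3%) and 4 higher (background 41.7%). A log2 change of at least 1 with a call was seen for Rxrg, Ppara and Nr3c2 among the lower genes, where 5.16% of all genes passed that mark, and for Nr1h3 among the higher ones, where 9.02% did.

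**Figure D1:**
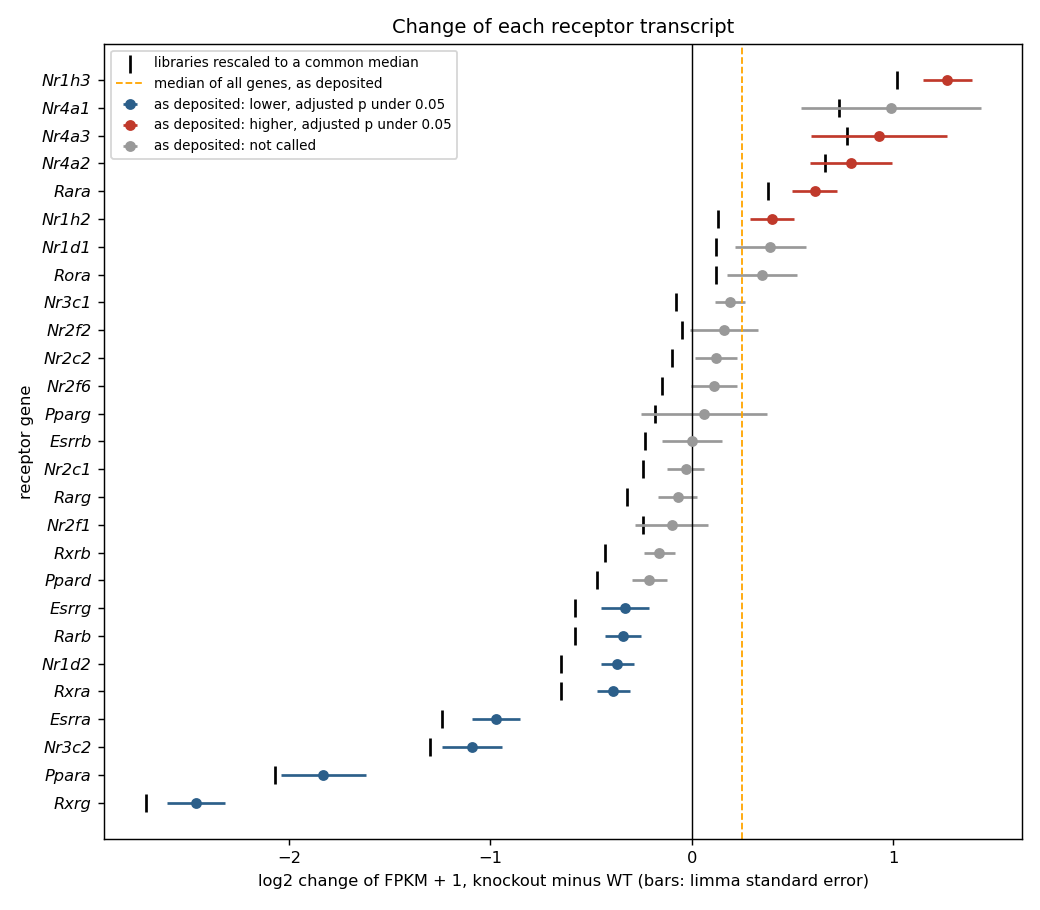
Log2 change of FPKM + 1 (knockout minus WT) on the horizontal axis for the 27 tested receptor genes, ordered by change, with bars for the limma standard error; colours mark the call as deposited, black ticks the value after rescaling, and the dashed line the median of all genes. Rxrg (-2.46) and Ppara (-1.83) lie farthest to the left and Nr1h3 (1.27) farthest to the right.

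The RXRs are the shared partners of the receptors that bind DNA as heterodimers. Rxrg, the muscle-enriched member, was 6.82, 8.74, 5.29 and 4.99 FPKM in the knockout and 39.3, 41.7, 36.4 and 39.4 FPKM in the WT libraries. All 4 knockout libraries lay far under the lowest WT library. Rxrg fell by 2.46 on the log2 scale (SE 0.145, limma adjusted p = 2.09e-06), and by 2.71 after rescaling, the largest change of any receptor on the list. Rxra, the most widely studied RXR, was 11.2, 9.03, 9.43 and 9.76 FPKM in the knockout and 13.6, 14.0, 12.7 and 12.4 FPKM in the WT libraries, again without overlap. It fell by 0.39 (SE 0.0827, adjusted p = 0.00278) and by 0.65 after rescaling. Rxrb, the third RXR, was 16.3, 17.2, 14.6 and 14.8 FPKM in the knockout and 18.6, 18.2, 17.5 and 16.5 FPKM in the WT libraries, where the ranges met. Its change of -0.16 missed the threshold as deposited (limma adjusted p = 0.096) and passed it after rescaling, at -0.43 (adjusted p = 0.00162).

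The RXRs differed in their shares as well as in their sum. Summed RXR level was 70.1 ± 3.29 FPKM in WT and 32.1 ± 3.04 FPKM in the knockout libraries (SD, n = 4 each). Rxrg held 55.9% ± 1.41 of that sum in WT and 19.9% ± 3.57 in the knockout libraries. Rxrb was the leading RXR in the knockout libraries, with 49.2% ± 1.14 against 25.3% ± 1.05 in WT. Rxra held 30.9% ± 3.41 against 18.8% ± 0.422. None of these shares overlapped between the groups, and a share within a library does not depend on how libraries are scaled.

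In bulk tissue, fewer cells of a type and less RNA per cell cannot be told apart. Of 10 markers of ventricular heart muscle cells, 9 also fell in the knockout libraries, on both scales. Among all genes 16.4% were lower as deposited and 26.9% after rescaling. The 10 markers had a median log2 change of -1.09. Their summed level was 16801 to 26501 FPKM in the knockout and 49658 to 55676 FPKM in the WT libraries. Among them the ryanodine receptor Ryr2 fell by 2.80 and the ventricular light chain Myl2 fell by 1.48. Heart muscle markers moved with the lower receptors, and their part in those falls was not tested.

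RefSeq windows around the start sites of the receptors (build GRCm38.p6, from 250 bases before each annotated start, 300 bases long) were searched for short motifs, on both strands, and the motifs were chosen after the expression values had been seen. The receptor half-site AGGTCA occurred in 16.3% of 32851 windows of all genes and in 8 of the 47 windows of the 30 receptors with an entry (17%). The longer AAAGGTCA, which contains AGGTCA, occurred in 1.51% of all windows and in 2 receptor windows, 1 of Rxrg and 1 of Rxra. Both lie at a second annotated start inside the gene. They are printed because these genes fell together, with the match in capitals, 120 bases ending just before that start. In Rxrg (chr1:167618145-167618264, plus strand) the match begins at -90, counted in bases from the start, and in Rxra (chr2:27709172-27709291, plus strand) at -50. A match is a description of the letters and not a binding site.
Rxrg: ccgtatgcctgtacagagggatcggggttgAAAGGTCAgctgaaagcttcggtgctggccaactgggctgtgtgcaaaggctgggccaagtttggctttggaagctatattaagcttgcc
Rxra: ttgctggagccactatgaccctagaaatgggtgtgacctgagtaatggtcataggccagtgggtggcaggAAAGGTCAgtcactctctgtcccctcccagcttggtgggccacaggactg
Half-sites repeated in the same direction with a spacing of 1 (AGGTCANAGGTCA), 4 (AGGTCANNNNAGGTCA) or 5 bases (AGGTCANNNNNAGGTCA), the arrangements known for RXR heterodimers, each overlap the half-site search and occurred in 0.0396%, 0.0152% and 0.00913% of all windows. None of the 47 receptor windows held these letters.

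**Figure D2:**
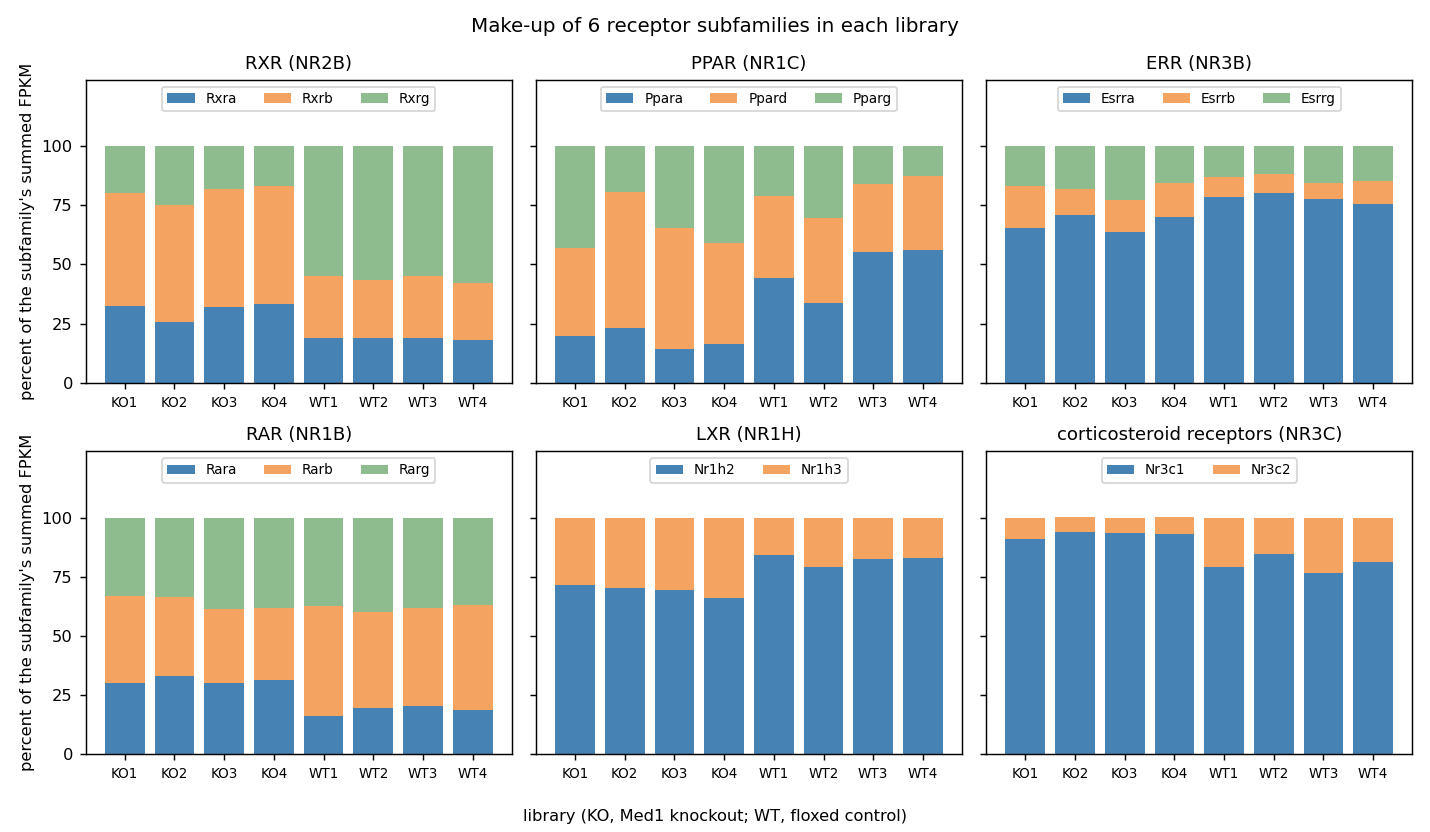
Stacked bars give the percent of a subfamily's summed FPKM (vertical axis) held by each member in each of the 8 libraries (horizontal axis), for 6 receptor subfamilies. Rxrg holds 54.7% to 57.7% of the RXR sum in the WT libraries and 16.9% to 25.0% in the knockout libraries, and Ppara, Nr3c2 and Nr1h3 shift without overlap between the groups as well.

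Among the PPARs, the alpha isoform fell and the others did not pass the test as deposited. Ppara, the fatty acid sensor of oxidative tissues, was 4.38, 3.85, 2.42 and 3.53 FPKM in the knockout and 14.9, 9.81, 20.6 and 16.5 FPKM in the WT libraries. The WT values spread widely, yet the lowest of them was above every knockout library. Ppara fell by 1.83 (SE 0.211, limma adjusted p = 7.46e-05), and by 2.07 after rescaling. Ppard, which shares many target genes with Ppara in muscle, was 8.11, 9.50, 8.78 and 9.24 FPKM in the knockout and 11.7, 10.4, 10.7 and 9.17 FPKM in the WT libraries, and WT library 4 lay among the knockout values. Its change was -0.21 (adjusted p = 0.0602) as deposited and -0.47 (adjusted p = 0.00151) after rescaling, and it passed as deposited without WT library 4 (-0.27, adjusted p = 0.0278).

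Pparg, the regulator of fat cell differentiation, was 9.51, 3.20, 5.97 and 8.80 FPKM in the knockout and 7.07, 8.86, 5.98 and 3.63 FPKM in the WT libraries. Its groups overlapped fully and its change was 0.06 as deposited (adjusted p = 0.884) and -0.18 after rescaling (adjusted p = 0.63). The 3 libraries with most Pparg, knockout 1, WT 2 and knockout 4, were also the 3 with the highest summed level of 10 endothelial markers (520, 478 and 540 FPKM, against 362 to 400 in the others). The single markers did not share this order. Knockout library 4 had the highest Eng (132 FPKM), Pecam1 (92.9 FPKM) and Emcn (78.3 FPKM) of any library. It also had the lowest Tie1 (26.9 FPKM) and Tek (15.9 FPKM). Of those 10 markers 3 were higher and 2 lower in the knockout group as deposited, and 0 and 4 after rescaling. Among all genes 44.9% were higher and 16.4% lower as deposited, and 27% and 26.9% after rescaling. The sum over the 7 listed fat cell markers ordered the libraries otherwise. It was 14.6, 0.339, 0.637 and 165 FPKM in the knockout and 0.398, 0, 20.1 and 0.220 FPKM in the WT libraries. Of the 6 fat cell markers tested limma called 0, with 0 at an unadjusted p under 0.05. The authors' deposited table has 3 fat cell markers higher. The part of either cell type in the spread of Pparg was not tested. Summed PPAR level was 32.3 ± 3.95 FPKM in WT and 19.3 ± 2.85 FPKM in the knockout libraries (SD, n = 4 each). Ppara held 47.4% ± 10.5 of it in WT and 18.4% ± 4.00 in the knockout, while Ppard held 32.7% ± 3.18 and 47.1% ± 9.05.

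Of 24 tested genes on a list of PPAR alpha and delta targets, 12 were lower and 1 was higher, against 16.4% and 44.9% of all genes, and after rescaling 14 were lower and 1 higher. The authors' deposited table has 21 of the list lower and 1 higher. The list's median log2 change was -0.88, against 0.25 over all genes. The largest falls were those of Ucp3, a mitochondrial uncoupling protein (-3.05), the lipid droplet protein Plin5 (-2.60), the lipoprotein lipase Lpl (-1.84) and the dienoyl-CoA isomerase Ech1 (-1.70), with limma adjusted p between 2.21e-06 and 0.00163. Ucp3 varied as much as its mean in WT (27.5 ± 27.5 FPKM, SD, n = 4) and was 1.59 ± 0.940 FPKM in the knockout libraries. Cidea, a lipid droplet protein, was the gene that rose, by 1.20 (adjusted p = 0.00315). Other classical targets were not called: Cpt1a, the liver form of the carnitine acyltransferase, stood at 0.21 (adjusted p = 0.494), and Pdk4, an inhibitor of pyruvate oxidation, at -0.91 (adjusted p = 0.253) with a WT spread of 224 ± 224 FPKM.

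The ERRs have no known hormone and drive genes of energy metabolism. Esrra was the receptor with the highest WT level. It was 28.3, 34.4, 23.5 and 25.9 FPKM in the knockout and 58.1, 60.9, 51.2 and 51.2 FPKM in the WT libraries, with a wide gap between the groups. Esrra fell by 0.97 (SE 0.119, limma adjusted p = 0.000107), and by 1.24 after rescaling. Esrrg, enriched in the postnatal heart, was 7.31, 8.89, 8.38 and 5.75 FPKM in the knockout and 9.72, 8.84, 10.3 and 9.96 FPKM in the WT libraries. WT library 2 lay below knockout library 2, so the groups touched. Its fall of 0.33 (SE 0.12, adjusted p = 0.0379) was lost when any of knockout libraries 1 and 4 or WT libraries 1, 3 and 4 was left out (adjusted p between 0.0638 and 0.0897). It stood at -0.15 (adjusted p = 0.185) without knockout libraries 1 and 4 together, and at -0.58 (adjusted p = 0.00375) after rescaling.

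Esrrb, best known from early embryos and the inner ear, was 7.66, 5.35, 5.04 and 5.41 FPKM in the knockout and 6.16, 6.14, 4.33 and 6.73 FPKM in the WT libraries. It did not pass on either scale, with 0.00 (adjusted p = 0.981) and -0.23 (adjusted p = 0.214). The summed ERR level was 70.9 ± 4.82 FPKM in WT and 41.5 ± 5.63 FPKM in the knockout libraries (SD, n = 4 each), of which Esrra held 78.0% ± 2.01 and 67.4% ± 3.43.

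Of 19 tested genes on a list of ERR targets, 18 were lower on both scales, where 16.4% of all genes were lower as deposited and 26.9% after rescaling, and the median log2 change was -1.18. The list holds Ppara and Esrra themselves and many genes of the respiratory chain and the citric acid cycle. Besides Ppara, the largest falls were those of citrate synthase Cs (-1.71), the medium-chain acyl-CoA dehydrogenase Acadm (-1.64) and the complex III subunit Uqcrc1 (-1.58), each with a limma adjusted p of 4.53e-05 or lower. Nrf1, a regulator of nuclear genes for mitochondria, was the single riser, at 0.31 (adjusted p = 0.0036) as deposited and 0.07 (adjusted p = 0.381) after rescaling.

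Of the corticosteroid receptors, the mineralocorticoid receptor fell and the glucocorticoid receptor was not called. Nr3c2, the mineralocorticoid receptor, was 2.42, 1.63, 1.83 and 1.56 FPKM in the knockout and 5.44, 3.73, 6.23 and 5.02 FPKM in the WT libraries. No knockout library reached the lowest WT library. Nr3c2 fell by 1.09 (SE 0.149, limma adjusted p = 0.000204), and by 1.30 after rescaling. Nr3c1, the glucocorticoid receptor, was 24.6, 24.2, 25.9 and 21.2 FPKM in the knockout and 20.6, 20.6, 20.4 and 21.7 FPKM in the WT libraries. Only knockout library 4 lay within the WT range. Its change was 0.19 (adjusted p = 0.0532) and turned to -0.08 (adjusted p = 0.437) after rescaling, and it passed as deposited without knockout library 4, at 0.25 (adjusted p = 0.0122). The pair's summed level was 25.9 ± 1.10 FPKM in WT and 25.8 ± 2.21 FPKM in the knockout libraries (SD, n = 4 each), while Nr3c2 held 19.6% ± 3.42 and 7.18% ± 1.21 of it.

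Of 14 tested genes on a list of targets of these receptors, 4 were higher and 2 lower as deposited, and 3 and 5 after rescaling. Among all genes 44.9% were higher and 16.4% lower as deposited, and 27% and 26.9% after rescaling. The authors' deposited table has 4 of the list higher and 6 lower. Lcn2, a secreted iron-carrier binding protein with a WT mean of 0.995 FPKM, rose by 1.77 (adjusted p = 0.0126), the glucocorticoid-induced chaperone partner Fkbp5 by 1.20 (adjusted p = 0.0406) and the transcription factor Cebpd by 1.19 (adjusted p = 3.29e-05). Lcn2 passed the minimum through the knockout group alone. Fkbp5 no longer passed after rescaling (0.95, adjusted p = 0.0963). The kinase subunit Pik3r1 fell by 1.16 (limma adjusted p = 6.77e-05). Other classical targets did not pass as deposited, among them Per1 at 0.21 (adjusted p = 0.0816) and Tsc22d3 at -0.31 (adjusted p = 0.0881).

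Of the retinoic acid receptors, Rara rose and Rarb fell. Rara, the widely expressed form, was 5.78, 6.92, 5.23 and 6.97 FPKM in the knockout and 3.10, 4.06, 3.93 and 3.77 FPKM in the WT libraries. Every knockout library was above every WT library. Rara rose by 0.61 (SE 0.111, limma adjusted p = 0.00106), and by 0.38 after rescaling (adjusted p = 0.0192), where the call was lost without knockout libraries 1 and 4 (0.36, adjusted p = 0.0711). Rarb, itself a retinoic acid target, was 6.94, 6.97, 5.41 and 6.81 FPKM in the knockout and 8.74, 8.44, 7.88 and 8.84 FPKM in the WT libraries, without overlap. It fell by 0.34 (SE 0.0902, adjusted p = 0.00946) and by 0.58 after rescaling. Rarg, the form best known from skin and cartilage, was 6.36, 6.95, 6.67 and 8.44 FPKM in the knockout and 7.02, 8.27, 7.27 and 7.36 FPKM in the WT libraries, which overlapped. Its change was -0.07 (adjusted p = 0.547), and -0.32 after rescaling (adjusted p = 0.0185).

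Summed RAR level was 19.7 ± 0.876 FPKM in WT and 19.9 ± 2.13 FPKM in the knockout libraries (SD, n = 4 each). Within it the share of Rara was 18.9% ± 1.76 in WT and 31.3% ± 1.40 in the knockout, and that of Rarb 43.1% ± 2.66 and 32.9% ± 2.59, both without overlap. Of 10 tested genes on a list of retinoic acid targets and metabolism, 6 were higher and 2 lower, on both scales, beside 44.9% and 16.4% of all genes as deposited and 27% and 26.9% after rescaling. Of the 6, Aldh1a3 passed the minimum through the knockout group alone. The retinaldehyde dehydrogenases Aldh1a2 and Aldh1a1, which make retinoic acid, rose by 1.97 (limma adjusted p = 0.0143) and 1.94 (adjusted p = 0.000394), and the transglutaminase Tgm2 by 1.59 (adjusted p = 1.98e-06). Aldh1a2 was 4.25, 41.8, 31.2 and 23.1 FPKM in knockout libraries 1 to 4, so library 1 lay within the WT range of 2.68 to 6.60 FPKM. The 2 that fell were Rarb and Dhrs3, a reductase that turns retinaldehyde back into retinol, by 1.16 (adjusted p = 1.94e-05). Markers of other cells of the heart wall were read beside this list. Of 10 fibroblast markers 6 were higher as deposited and 3 after rescaling, with none lower, and their summed level was 869 to 1452 FPKM in the knockout and 588 to 695 FPKM in the WT libraries. Of 9 markers of pericytes and smooth muscle 3 were higher and 4 lower, with a median log2 change of -0.07. Their sum was 781 to 1043 FPKM in the knockout and 415 to 591 FPKM in the WT libraries. Within it Cnn1 was 268 to 404 and 1.11 to 1.48 FPKM, and Tagln 96.3 to 333 and 25.0 to 30.5 FPKM. The part of these cells in the retinoid genes was not tested.

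The liver X receptors, sensors of oxidised cholesterol, were both higher as deposited. Nr1h3 (LXR alpha) was 12.6, 9.71, 11.5 and 12.5 FPKM in the knockout and 3.99, 5.40, 3.78 and 3.81 FPKM in the WT libraries. The groups were far apart, and Nr1h3 moved from rank 19 of the 31 receptors by mean level in WT to rank 9 in the knockout. It rose by 1.27 (SE 0.12, limma adjusted p = 2.47e-05), and by 1.02 after rescaling. Nr1h2 (LXR beta) was 31.9, 22.8, 25.9 and 24.0 FPKM in the knockout and 21.0, 20.7, 17.9 and 18.2 FPKM in the WT libraries, without overlap but with knockout library 2 close to WT library 1. It rose by 0.40 as deposited (SE 0.11, adjusted p = 0.0105), and this was not seen after rescaling (0.13, adjusted p = 0.303). Nr1h3 held 30.8% ± 2.46 of the LXR sum in the knockout and 17.9% ± 2.01 in WT (SD, n = 4 each).

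Of 11 tested LXR targets, a list that includes Nr1h3, 2 were higher and 1 lower as deposited, and 1 and 2 after rescaling. Among all genes 44.9% were higher and 16.4% lower as deposited, and 27% and 26.9% after rescaling. Nr1h3 itself and the fatty acid synthase Fasn (0.74, adjusted p = 0.0168) were the higher genes, Fasn at 0.51 (adjusted p = 0.0806) after rescaling. The phospholipid transfer protein Pltp fell by 0.82 (limma adjusted p = 0.00139). The cholesterol exporters Abca1 (-0.22, adjusted p = 0.424) and Abcg1 (0.16, adjusted p = 0.314) were not called. Macrophages are cells in which Nr1h3 is abundant. Of 12 macrophage and immune markers limma called 0 as deposited (0 higher and 1 lower at an unadjusted p under 0.05), and 3 were lower after rescaling. The authors' deposited table has 1 of them higher and 5 lower. Their summed level was 207 to 399 FPKM in the knockout and 278 to 419 FPKM in the WT libraries. The part of macrophages in the rise of Nr1h3 was not tested.

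The REV-ERB receptors are repressors within the circadian clock. Nr1d2 (REV-ERB beta) was 34.7, 36.3, 32.8 and 33.7 FPKM in the knockout and 48.6, 39.1, 45.8 and 45.9 FPKM in the WT libraries, without overlap. It fell by 0.37 (SE 0.0813, limma adjusted p = 0.0032), and by 0.65 after rescaling. Nr1d1 (REV-ERB alpha) was 31.4, 31.4, 28.6 and 35.7 FPKM in the knockout and 36.2, 18.8, 21.9 and 22.1 FPKM in the WT libraries. WT library 1 was above all 4 knockout libraries, and the other WT libraries were below them. The change of Nr1d1 was 0.39 (SE 0.177, adjusted p = 0.0835) as deposited and 0.12 (adjusted p = 0.592) after rescaling. As deposited and without WT library 1 it was 0.58 (adjusted p = 0.00166). WT library 1 also had the highest Nr1d2. Rora, an activator at the same DNA elements, was 6.46, 3.68, 5.27 and 5.28 FPKM in the knockout and 4.00, 3.36, 5.19 and 2.91 FPKM in the WT libraries, with overlap. Its change was 0.35 (adjusted p = 0.113) as deposited and 0.12 (adjusted p = 0.573) after rescaling. As deposited it was 0.47 without knockout library 2 (adjusted p = 0.0332) or without WT library 3 (adjusted p = 0.0397).

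A list of REV-ERB and ROR targets was read as well, which includes Nr1d1 itself. Of the 9 tested genes on the list, limma called 6 higher and 0 lower, on both scales, with 0 lower at an unadjusted p under 0.05. Of all genes 44.9% were higher as deposited and 27% after rescaling. The authors' deposited table has 5 of the list higher and 0 lower. The cytokine Il6, listed at 0.0212 ± 0.0424 FPKM in WT, was 2.37 ± 1.37 FPKM in the knockout libraries (SD, n = 4 each), with a change of 1.60 (limma adjusted p = 0.00168). It passed the minimum through the knockout group alone, and in the fit with no minimum level it rose by 1.60 (limma adjusted p = 0.00412). The clock output repressor Nfil3 rose by 1.26 (adjusted p = 0.00291), and the core clock activators Clock by 1.08 (adjusted p = 3.09e-05) and Arntl by 0.96 (adjusted p = 0.00363).

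The TR2, TR4 and COUP-TF orphan receptors were not called as deposited. Nr2f6, the most abundant of them, was 11.2, 15.4, 12.5 and 11.2 FPKM in the knockout and 10.7, 12.9, 10.4 and 12.2 FPKM in the WT libraries, which overlapped (0.11, adjusted p = 0.439, and -0.15 after rescaling). Nr2c1 (TR2) averaged 2.78 ± 0.284 FPKM in the knockout and 2.86 ± 0.184 FPKM in WT. It stood at -0.03 (adjusted p = 0.769) as deposited and at -0.24 (adjusted p = 0.0406) after rescaling. Nr2c2 (TR4) averaged 4.05 ± 0.468 and 3.65 ± 0.441 FPKM (0.12, adjusted p = 0.345, and -0.10 after rescaling).

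Nr2f1 and Nr2f2, which specify atrial identity in the embryo, averaged 1.10 ± 0.477 and 3.45 ± 1.13 FPKM in the knockout and 1.23 ± 0.348 and 2.91 ± 0.381 FPKM in WT. Their limma changes were -0.10 (adjusted p = 0.666) and 0.16 (adjusted p = 0.428), and after rescaling -0.24 (adjusted p = 0.272) and -0.05 (adjusted p = 0.806). Both were highest in knockout library 4, at 1.80 and 5.03 FPKM. That library was also the highest for the atrial markers Myl7 (726 FPKM), Myl4 (781 FPKM), Sln (188 FPKM) and Bmp10 (66.0 FPKM), the last of which was at 0 in all WT libraries and in knockout libraries 2 and 3. Dkk3 was highest there too (24.0 FPKM), but the listed markers Nppa and Tbx5 were not. Nppa was 5760 FPKM in knockout library 4 and 7829 FPKM in knockout library 2. Tbx5 was 6.41 FPKM in knockout library 4 and 7.54 FPKM in WT library 2. Of 9 listed atrial markers, which include Nr2f1 and Nr2f2 themselves, 5 were higher and 1 lower in the knockout as deposited. Among all genes 44.9% were higher and 16.4% lower. Of the 5, Myl7 (WT mean 0.402 FPKM) and Sln (0 in all WT libraries) passed the minimum through the knockout group alone. The summed level of the 9 markers was 5054 to 7943 FPKM in the knockout and 206 to 389 FPKM in the WT libraries, most of it from the natriuretic peptide Nppa. How far atrial tissue bears on the NR2F values was not tested.

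The NR4A receptors are immediate early genes that act without a known ligand. Nr4a1 was 9.78, 43.1, 17.5 and 18.0 FPKM in the knockout and 5.23, 12.6, 16.4 and 6.35 FPKM in the WT libraries, so the groups overlapped and knockout library 2 stood apart. Its change of 0.99 (SE 0.445) was not called (limma adjusted p = 0.0802), and it was 0.73 (adjusted p = 0.203) after rescaling. Nr4a1 passed as deposited without knockout library 1 (1.29, adjusted p = 0.0304) or without WT library 3 (1.25, adjusted p = 0.0445). Nr4a2 was 0.811, 2.42, 1.72 and 1.31 FPKM in the knockout and 0.264, 0.413, 0.694 and 0.453 FPKM in the WT libraries. This low gene showed no overlap, and its WT mean of 0.456 FPKM was under the minimum that its knockout mean of 1.57 FPKM carried it past. In the fit with no minimum level, where that selection plays no part and 41.6% of all genes were called, Nr4a2 rose by 0.79 (limma adjusted p = 0.0109). With the minimum its change was 0.79 (SE 0.203, adjusted p = 0.00771), and 0.66 (adjusted p = 0.0212) after rescaling. With a smaller pseudocount of 0.1 FPKM its rise was 1.54. Nr4a3 was 1.49, 6.01, 2.13 and 2.78 FPKM in the knockout and 1.07, 0.431, 2.15 and 0.679 FPKM in the WT libraries, and WT library 3 lay above knockout libraries 1 and 3. It rose by 0.93 (SE 0.337, adjusted p = 0.037) as deposited. The call was lost after rescaling (0.77, adjusted p = 0.0871) and when any of knockout libraries 2 and 4 or WT libraries 1, 2 and 4 was left out (adjusted p between 0.0629 and 0.0954), with 0.64 without knockout library 2.

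Knockout library 2 had the highest value of all 3 NR4A genes. Of 6 other immediate early genes, looked up after the NR4A values had been seen, Fos, Fosb, Egr1, Ier2 and Atf3 were also highest in that library, and Junb was highest in knockout library 4 (21.7 FPKM, against 20.7 FPKM in knockout library 2). Fos was 2.61, 19.9, 9.49 and 7.83 FPKM in the knockout and 1.32, 2.99, 1.55 and 1.05 FPKM in the WT libraries (1.80, adjusted p = 0.00735). Egr1 was 3.83, 28.1, 10.8 and 14.4 FPKM in the knockout and 3.66, 5.19, 3.27 and 3.60 FPKM in the WT libraries (1.37, adjusted p = 0.0237). Atf3 was 84.5 FPKM in knockout library 2, 21.4 to 41.9 FPKM in the other knockout libraries and 2.79 to 7.68 FPKM in WT. WT library 3, the highest WT library for all 3 NR4A genes, had 1.55 FPKM of Fos, the lowest WT value of Egr1 (3.27 FPKM) and the highest WT value of Atf3 (7.68 FPKM). The part of the immediate early genes in the NR4A values was not tested.

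**Figure D3:**
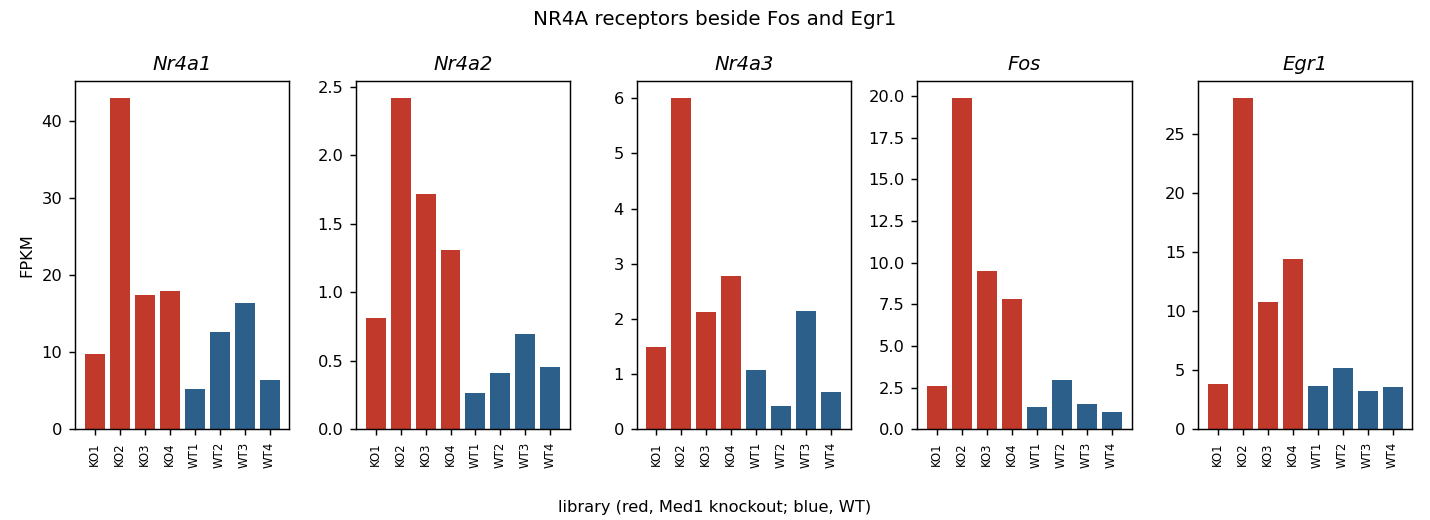
Bars give the FPKM of each library (vertical axis, from 0, with its own scale per gene) for Nr4a1, Nr4a2, Nr4a3, Fos and Egr1, with knockout libraries in red and WT libraries in blue. Knockout library 2 is the highest bar in each panel, at 43.1, 2.42, 6.01, 19.9 and 28.1 FPKM.

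The receptor windows were also searched for TGACG, a motif chosen after the expression values had been seen. TGACG, the core of the cyclic AMP response element, occurred on either strand in 20.8% of all windows and in 15 of the 47 receptor windows (31.9%). At least 4 matches were found in 0.231% of all windows, and a window of each of Nr4a1, Nr4a2 and Nr4a3 held 4. The mark of 4 equals the number in these 3 genes, so that share is no test of them. The bases upstream of the start are printed for the 3 genes, in the direction of transcription, with TGACG and its reverse complement CGTCA in capitals. The printed stretches, which lie within the 300-base windows, are at chr15:101266606-101266845 (plus strand) for Nr4a1, chr2:57124004-57124213 (minus strand) for Nr4a2 and chr4:48045065-48045304 (plus strand) for Nr4a3. The Nr4a3 start in RefSeq lies upstream of the locus start in the deposited table, 48051248, so that window belongs to another annotated transcript start.
Nr4a1: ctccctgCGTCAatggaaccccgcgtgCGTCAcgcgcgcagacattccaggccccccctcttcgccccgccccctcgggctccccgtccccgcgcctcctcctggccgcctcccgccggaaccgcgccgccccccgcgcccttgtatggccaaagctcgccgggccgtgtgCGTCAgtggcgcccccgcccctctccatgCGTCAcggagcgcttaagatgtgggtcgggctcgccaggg
Nr4a2: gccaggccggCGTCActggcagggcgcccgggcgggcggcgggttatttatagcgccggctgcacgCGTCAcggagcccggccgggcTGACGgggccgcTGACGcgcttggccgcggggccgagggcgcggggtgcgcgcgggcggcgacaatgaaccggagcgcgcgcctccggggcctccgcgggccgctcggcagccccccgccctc
Nr4a3: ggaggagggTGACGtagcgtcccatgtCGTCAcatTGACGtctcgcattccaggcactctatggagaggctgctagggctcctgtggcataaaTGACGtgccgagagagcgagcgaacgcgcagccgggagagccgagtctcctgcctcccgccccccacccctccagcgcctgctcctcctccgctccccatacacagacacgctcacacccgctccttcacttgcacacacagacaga
Counted in bases from the start, the matches begin at -233, -213, -69 and -40 in Nr4a1, at -200, -144, -123 and -111 in Nr4a2, and at -231, -213, -205 and -147 in Nr4a3. The E-box CACGTG, the element of the clock activators, was searched as well and occurred in 7.15% of all windows and in 3 receptor windows, of Esr2 and Rara.

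Vdr, Esr1, Esr2 and Nr6a1 had a mean under 1 FPKM over the 8 libraries and were not tested. Vdr, the vitamin D receptor, was 0.129 to 0.418 FPKM in the knockout and 0.152 to 0.300 FPKM in the WT libraries. Esr1, the main oestrogen receptor, was 0.0181 to 0.371 and 0.107 to 0.239 FPKM. Esr2, the second oestrogen receptor, was at most 0.0475 FPKM in any library. Nr6a1, an orphan receptor of germ cells and early embryos, was 0.676, 0.765, 0.496 and 0.515 FPKM in the knockout and 0.422, 0.349, 0.372 and 0.339 FPKM in the WT libraries, and these low values did not overlap. In a fit with no minimum level, in which 41.6% of genes were called, the change of Nr6a1 was 0.23 (limma adjusted p = 0.0172).

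The order of receptor levels differed between the groups. In WT the highest means were those of Esrra (55.4 ± 4.93 FPKM), Nr1d2 (44.8 ± 4.03), Rxrg (39.2 ± 2.18), Nr1d1 (24.7 ± 7.78), Nr3c1 (20.8 ± 0.593), Nr1h2 (19.4 ± 1.63), Rxrb (17.7 ± 0.940) and Ppara (15.4 ± 4.45; SD, n = 4 each). From Nr1d2 to Rxrg and from Nr1d1 down to Ppara, neighbours lay within the sum of their SDs of each other. In the knockout libraries Nr1d2 (34.4 ± 1.53 FPKM), Nr1d1 (31.8 ± 2.93), Esrra (28.0 ± 4.68), Nr1h2 (26.2 ± 4.01), Nr3c1 (24.0 ± 2.0) and Nr4a1 (22.1 ± 14.5) led, and each lay within the sum of the SDs of its neighbour. Rxrg went from rank 3 of 31 to rank 16, Ppara from 8 to 21 and Nr3c2 from 18 to 25. The summed level of the 31 receptors was 351 ± 12.8 FPKM in WT and 299 ± 21.2 FPKM in the knockout libraries. As a percent of the summed FPKM of all genes in each library the totals were 0.0673% ± 0.00335 and 0.0608% ± 0.00425, and these ranges overlapped.

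**Figure D4:**
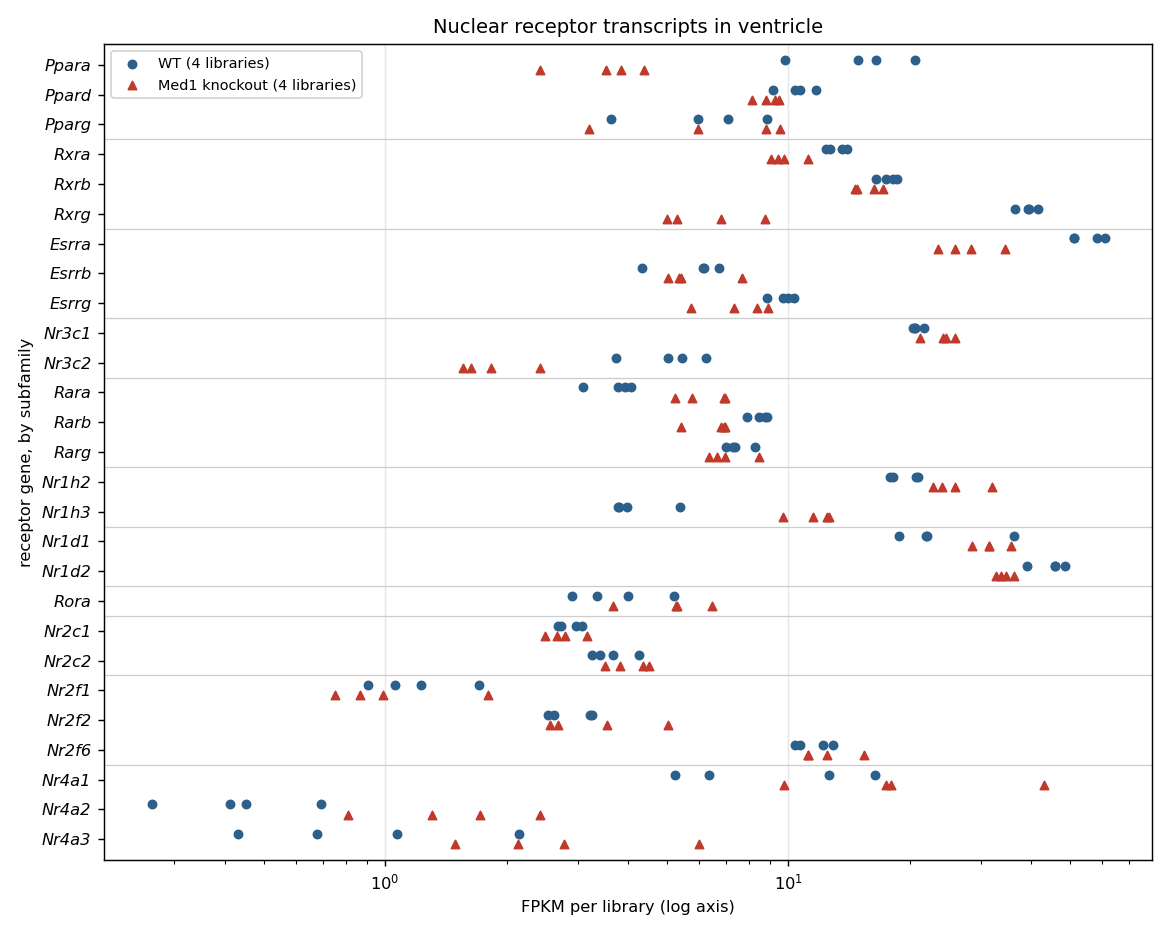
Each point is the FPKM of 1 library (horizontal log axis) for the 27 tested receptor genes, grouped by subfamily, with circles for 4 WT and triangles for 4 knockout libraries. The 4 knockout values of Rxrg, 4.99 to 8.74 FPKM, lie far to the left of the WT values, 36.4 to 41.7 FPKM, while those of Nr1h3 lie to the right.

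Receptors outside the 31 were read from a further list of 18, of which 4 were past the minimum, and all 4 were lower on both scales. Among all genes 16.4% were lower as deposited and 26.9% after rescaling. Nr0b2, a small partner that inhibits other receptors, fell from 12.2 ± 1.73 FPKM in WT to 1.09 ± 0.423 FPKM in the knockout libraries (SD, n = 4 each), by 2.68 (limma adjusted p = 1.62e-06). The thyroid hormone receptors Thrb (-0.83, adjusted p = 0.000299) and Thra (-0.32, adjusted p = 0.0416) fell as well, Thra not in the fit with no minimum level (adjusted p = 0.063). Over both lists 31 receptors were tested, 12 lower and 5 higher as deposited, beside 16.4% and 44.9% of all genes.

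Coactivators and corepressors are the proteins that receptors recruit beside Med1. Of 19 tested, 6 were higher and 3 lower as deposited, where 44.9% and 16.4% of all genes were, and 2 and 5 after rescaling, where 27% and 26.9% were. The authors' deposited table has 2 of them higher and 3 lower. The 3 that fell as deposited were Lpin1 (-2.34, limma adjusted p = 1.97e-06), Ppargc1b (-2.10, adjusted p = 1.17e-05) and Ppargc1a (-1.65, adjusted p = 1.43e-05), known partners of PPAR alpha and the ERRs. More general coactivators went otherwise as deposited: Ncoa1 (-0.03, adjusted p = 0.75) and Ep300 (0.06, adjusted p = 0.644) were not called, and Crebbp rose (0.45, adjusted p = 0.00363). After rescaling Ncoa1 (-0.27, adjusted p = 0.0136) and Carm1 (-0.25, adjusted p = 0.0255) were lower as well, and Crebbp was no longer called (0.22, adjusted p = 0.0831). Ncoa4, also a ferritin receptor, rose by 0.73 (adjusted p = 0.000265). On a list of oestrogen and vitamin D targets and hormone metabolism, 5 genes were tested, of which Spp1 (1.93, adjusted p = 0.00712) and Hsd17b7 (0.58, adjusted p = 0.0106), which both passed the minimum through the knockout group alone, were higher and Hsd17b4, an enzyme that also serves peroxisomal oxidation, was lower (-0.88, adjusted p = 5.1e-05).

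**Figure D5:**
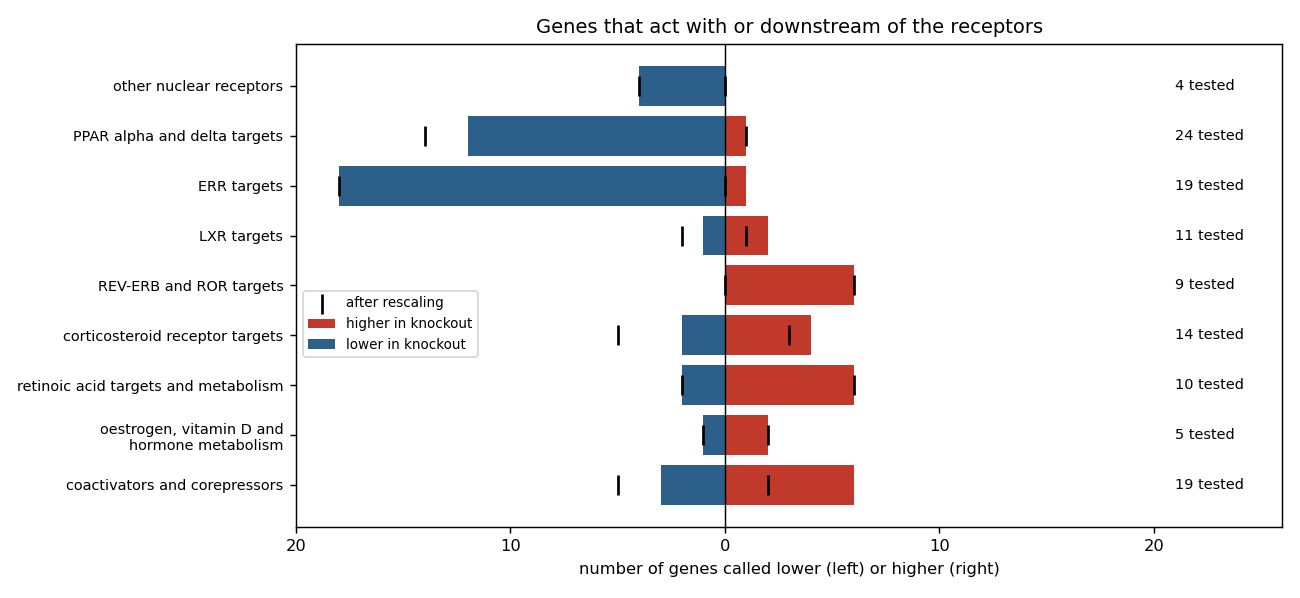
Horizontal bars give the number of genes called lower (left) and higher (right) in the knockout for 9 lists of genes that act with or downstream of the receptors, with the number tested at the right edge and black ticks for the counts after rescaling. All but 1 of the 19 tested ERR targets are called lower, while the list of REV-ERB and ROR targets has 6 higher and 0 lower.

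In the authors' deposited table of the same comparison, 27 of the 31 receptors were tested, and 10 were lower and 5 higher at a q-value under 0.05. Of all genes tested in the authors' deposited table, 45.8% were called, 22.8% lower and 23.1% higher. All 8 lower calls given above are among those in the authors' deposited table, which adds Ppard (q = 0.00517) and Rxrb (q = 0.00844) as lower and Nr4a1 (q = 0.000211) as higher. Nr1h2 was not called in the authors' deposited table (log2 fold change 0.14, q = 0.449). The authors' deposited table gave Rxrg a log2 fold change of -2.88, Ppara -2.40 and Esrra -1.26.

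Exons of several receptors overlap genes on the other strand in GENCODE M21. The libraries were made with a stranded kit, and no label says whether counting used strand. Without strand, reads of Nr1d1 and Thra (263 of 2721 exon bases of Nr1d1), Rarb and Top2b (1793 of 3392), Nr2c2 and Mrps25 (3533 of 8113) and Nr2f6 and Ocel1 (914 of 2218) cannot be told apart in the shared bases. Esrra, Nr3c2 and Rora share 73 to 155 exon bases with a gene on the other strand.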

How the data were processed

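Poly(A) RNA from ventricles of 4 knockout and 4 WT samples was made into stranded libraries, per the labels' protocols. Per the submitters' processing notes, reads were aligned to mm10 with TopHat 1.0.0 and transcripts were quantified and compared with Cufflinks and Cuffdiff. No label gives the annotation or says whether counting used strand. One deposited table holds the authors' FPKM for each gene in each sample, and a second holds pooled FPKM per group, log2 fold changes, a test score, p-values and q-values, per the file headers. Library columns were matched to samples through the sample descriptions.

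Of 23847 entries, 312 that the authors marked as low data in every library and 1 that failed in 1 library were left out, and the authors' value of 0.001 FPKM, written in place of 0, was set back to 0. FPKM are not counts, so no count model was used: log2(FPKM + 1) of genes whose mean was 1 FPKM or more was tested with limma 3.58.1 (R 4.3.3, intensity trend, no covariates), with Benjamini-Hochberg adjustment over all 11974 genes. The fit was tested on simulated data. Rescaling used median-of-ratios factors (1.07 to 1.12 for knockout and 0.885 to 0.919 for WT libraries). With 4 samples a group the spread is estimated from few values, and the fragment depth is unknown. Alternatives were the pseudocount, the minimum level, 2 other scalings, the fit without trend, a replicate block and each sample left out.

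The receptors, the gene and marker lists and the tests were chosen with earlier results of these data known. All receptors were named. Those called, and those whose mean reached 5 FPKM, were given per library, and of each related list up to 4 called genes by size of change, with others named after their values were seen; a few genes that these lists hold are not reported here. Markers covered ventricular muscle, atrial, endothelial, fibroblast, macrophage, pericyte and smooth muscle, fat and red blood cells. Of 6 red cell markers limma called 0 (0 at an unadjusted p under 0.05, and 0 in the authors' deposited table), with sums of 1206 to 10350 FPKM in the knockout and 1358 to 7051 FPKM in the WT libraries.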

Additional observations from a re-analysis of the deposited data

Results flagged for a closer look

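Within each group of 4 libraries, the highest and lowest value of each receptor was compared with the others by Dixon's criterion. Of 62 such groups, 5 held a library past the 95% critical value, and chance gives about 1 in 20. Esrrb was 7.66 FPKM in knockout library 1, against 5.04 to 5.41 FPKM in the other knockout libraries. Rarb was 5.41 FPKM in knockout library 3, against 6.81 to 6.97 FPKM. Nr1h3 was 5.40 FPKM in WT library 2, against 3.78 to 3.99 FPKM in the other WT libraries, and still under the lowest knockout library. Nr3c1 was 21.7 FPKM in WT library 4, against 20.4 to 20.6 FPKM, a small step in a tight group. Esr2 was 0.0235 FPKM in WT library 2 and listed at 0 in the other WT libraries.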

How the results depend on the processing

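Over all genes, 5371 were called higher and 1964 lower as deposited. Rescaling to a common median of ratios gave 3236 and 3223, and quantile normalization 3437 and 3067. Among the receptors, 5 higher calls became 3 under rescaling, under quantile normalization and with a minimum of 5 FPKM (where 18 receptors were tested), while the 8 lower calls became 12, 11 and 7. The 3 were Nr1h3, Rara and Nr4a2 under both scalings. With the minimum of 5 FPKM they were Nr1h3, Nr1h2 and a newly called Nr3c1 (adjusted p = 0.0445). Rara, Nr4a2, Nr4a3 and the lower Nr3c2 were not tested there. No result reversed its call. With 1 sample left out in turn, 4 to 7 receptors were higher and 7 to 8 lower, and over all genes 4900 to 5278 and 1798 to 1949. A smaller pseudocount, no minimum and no trend left these counts within 1.5 times, but with no minimum Esrrg (adjusted p = 0.0646) and Nr4a3 (adjusted p = 0.0703) were no longer called and Nr3c1 was (adjusted p = 0.0483). Without knockout libraries 1 and 4, an alternative added after the data were seen, 7 receptors were higher and 7 lower. With rescaling added, 2 and 12 were, and 3118 and 3048 of all genes. Same-numbered samples did not deviate together (correlations of 0.14, 0.0325, -0.0409 and -0.0138), so the numbers were not taken as pairs. With a replicate block, 5 receptors were higher and 7 lower (5089 and 1867 of all genes): Nr4a1 was then called (0.99, adjusted p = 0.0153), and Esrrg (adjusted p = 0.061) and Nr4a3 (adjusted p = 0.0726) were not. The cause of these changes was not tested.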

Other observations

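Lrat, the enzyme that stores retinol as esters, was below the minimum of 1 FPKM over all libraries. It was 1.33, 0.968, 1.60 and 1.36 FPKM in the WT libraries, and was listed at 0, 0.0145, 0 and 0.0135 FPKM in knockout libraries 1 to 4. In the fit with no minimum its log2 change was -1.19 (limma adjusted p = 2.35e-05). Nr5a2, an orphan receptor of liver and gonads, averaged 0.402 FPKM in WT and 0.186 FPKM in the knockout, with -0.24 (adjusted p = 0.00918) in the same fit. Hsd11b2, the enzyme that shields the mineralocorticoid receptor from glucocorticoids, averaged 0.0666 FPKM in WT and 0.339 FPKM in the knockout, with 0.32 (adjusted p = 0.0189). Hnf4a, Nr1i2, Nr2e1, Nr2e3 and Nr0b1 were listed at 0 in all 8 libraries.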
